A study of Homo sapiens with 6 samples.

Results

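The transcripts of 53 genes that remodel chromatin or write, erase and read marks on histones and DNA were followed in OSC19SSZR cells, a sulfasalazine-resistant line of human oral squamous cell carcinoma. The genes were chosen by name, and all 53 were found among the 61859 genes of the deposited table. The cells received FOXA1 siRNA (n = 3) or control siRNA (n = 3) by lipid transfection. RNA was purified 48 h later. Both groups are the same resistant line, so the comparison asked what FOXA1 depletion does within resistant cells, and the sequence and number of siRNAs are not given in the sources used here.

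FOXA1 is a forkhead transcription factor that binds its sites in compacted chromatin and opens them for other factors. What follows at such sites depends on enzymes that FOXA1 does not encode. SWI/SNF complexes slide and evict nucleosomes, KMT2 proteins methylate histone H3 at enhancers and promoters, EP300 and CREBBP acetylate histones, and the Polycomb complex PRC2 places a repressive methyl mark. KDM proteins remove methyl groups from histones, DNMT enzymes methylate DNA, UHRF1 brings DNMT1 to newly copied DNA, and TET enzymes oxidise the methyl group. Genes of SWI/SNF subunits and of KMT2C and KMT2D are recurrently mutated in squamous cancers.

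Recovered reads ranged from 16510125 to 25732569 in the FOXA1 siRNA libraries and from 17286040 to 19233157 in the control siRNA libraries. FOXA1 itself had 247, 192 and 189 normalized counts in the FOXA1 siRNA libraries, against 1477, 1378 and 1459 in the control siRNA libraries, so every FOXA1 siRNA library was below every control siRNA library (-2.79 ± 0.088, SE, limma adjusted p = 3.32e-18 on the log2 scale). An exact two-sided permutation test of these 6 values gave p = 0.1, the smallest that 3 against 3 libraries allow. Of 8 squamous epithelial markers, including KRT5, KRT14 and TP63, none was at 0, and their summed level was 50513 to 53674 normalized counts with FOXA1 siRNA and 49537 to 51698 with control siRNA. Most of that sum was KRT5, and its members moved in different directions: KRT17 (1.01 ± 0.048), DSG3 (0.65 ± 0.071) and EPCAM (0.14 ± 0.049) rose, KRT5 (-0.18 ± 0.040) and TP63 (-0.40 ± 0.047) fell (log2 fold change ± SE), and CDH1, KRT6A and KRT14 did not pass. KRT14 averaged only 38.8 normalized counts over the 6 libraries. The 5 fibroblast markers summed to 92.5 to 135 with FOXA1 siRNA and 144 to 163 with control siRNA, with DCN and LUM at 0 in every library. The 4 leukocyte markers summed to 77.2 to 101 with FOXA1 siRNA and 96.1 to 109 with control siRNA. The 3 endothelial markers summed to 279 to 302 with FOXA1 siRNA and 542 to 571 with control siRNA, and most of that was CDH5. The part of these markers in the results was not tested. In such bulk RNA, fewer cells of a kind and less RNA per cell cannot be told apart. The labels do not say whether replicates were separate cultures, so the p-values reflect only the spread among the 6 libraries, which may be technical.

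Of the 53 genes, 30 passed an adjusted p of 0.05, which is 56.6%, against 51.8% of the 18460 genes tested. FOXA1 siRNA raised 19 of them, where 26.8% of all tested genes were higher, and lowered 11, where 25.0% of all tested genes were lower. A share of 56.6% lies near the background. The shares of all tested genes are also the background for the counts in each list below. The fits were made with limma on log2(normalized count + 1) over the genes that averaged at least 10 normalized counts, as all 53 did. Of the 30, 8 changed by at least 1.5-fold and 13 by less than 1.25-fold. Of all 18460 tested genes 9571 passed, and 3529 of these changed by at least 1.5-fold. Differences in parentheses are log2 fold changes of FOXA1 siRNA over control siRNA ± SE, and averages are given ± SD (n = 3 each). The median log2 fold change of the 53 was 0.090, against 0.0039 for all tested genes. For 35 of the 53 (66.0%) every library of 1 group lay above every library of the other, against 57.6% of all tested genes. With every library scaled to the same total, 15 of the 53 were higher and 14 lower, where 19.5% of all tested genes were higher and 32.3% lower, so the balance of rises over falls depended on the scaling.

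The level at which a gene is expressed bears on these shares. The 53 genes had a median mean level of 1336 normalized counts, and 33 of them lay between 1000 and 3000. Of all 3111 tested genes in that range, 67.6% were called and the median log2 fold change was 0.094. Of the 33, 10 were higher and 8 lower, and their median log2 fold change was 0.085. Among 5171 tested genes between 300 and 1000 normalized counts 60.3% were called, and of the 12 chromatin genes there 6 were higher and 1 lower.

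**Figure D1:**
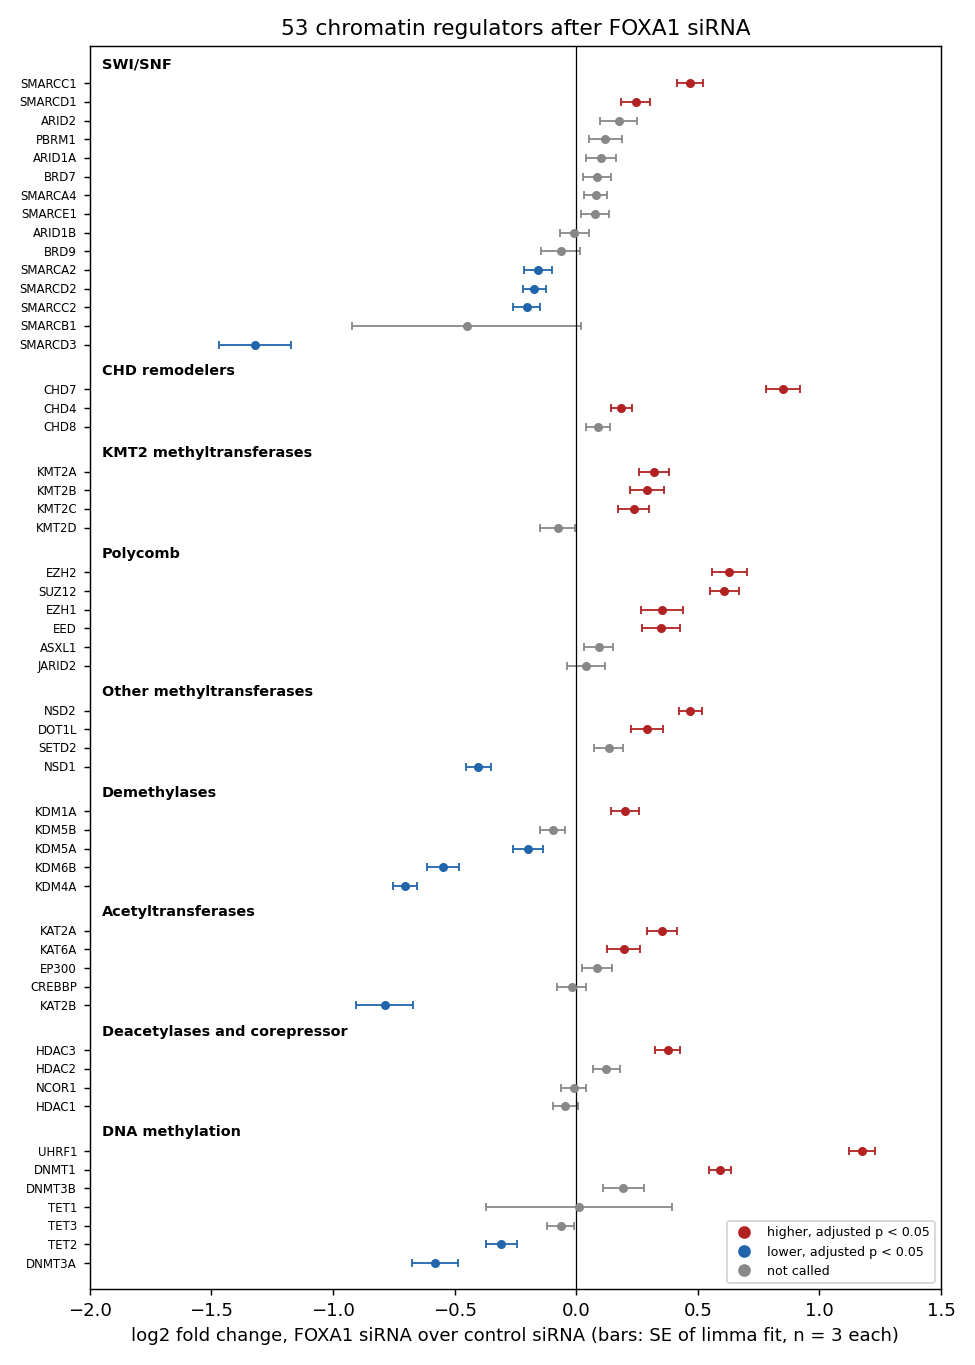
Log2 fold changes (FOXA1 siRNA over control siRNA) of the 53 genes by list, with the SE of the limma fit as bars (n = 3 each), red for higher, blue for lower and grey for not called at an adjusted p of 0.05. UHRF1 at 1.17 and SMARCD3 at -1.32 lie at the ends, and the bars of SMARCB1 and TET1 are the longest.

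The largest rise belonged to UHRF1 (ENSG00000276043, GRCh38 chromosome 19, 4903080 to 4962154, plus strand), the protein that recognises half-methylated DNA behind the replication fork. UHRF1 had 3448, 3529 and 3378 normalized counts in the FOXA1 siRNA libraries, against 1421, 1584 and 1586 in the control siRNA libraries. FOXA1 siRNA thus raised it 2.26-fold (1.17 ± 0.053, SE, limma adjusted p = 2.57e-16), with no overlap between the groups. DNMT1 (chromosome 19, 10133345 to 10231286, minus strand), the maintenance methyltransferase that UHRF1 recruits, had 5841, 5742 and 5845 normalized counts in the FOXA1 siRNA libraries, against 3749.9, 3941 and 3870.4 in the control siRNA libraries. It rose to 151% of the control level (0.59 ± 0.046, SE, limma adjusted p = 1.59e-11), and its 3 values with FOXA1 siRNA lay within a narrow band. Per kilobase of annotated exon the level of DNMT1 was 593 with FOXA1 siRNA and 393 with control siRNA, and that of UHRF1 was 671 with FOXA1 siRNA and 297 with control siRNA, so on this scale UHRF1 was above DNMT1 with FOXA1 siRNA and below it with control siRNA. That order rests on the annotated exon lengths, 5145 bases for UHRF1 and 9796 for DNMT1, and in normalized counts DNMT1 was above UHRF1 in every library.

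Of the de novo methyltransferases, which methylate DNA without a methylated template, DNMT3A fell and DNMT3B did not pass. DNMT3A had 319, 267 and 251 normalized counts in the FOXA1 siRNA libraries, against 444, 397 and 409 in the control siRNA libraries, and it fell (-0.58 ± 0.094, SE, limma adjusted p = 8.00e-06). DNMT3B had 411, 392 and 365 normalized counts in the FOXA1 siRNA libraries, against 340.5, 327 and 353 in the control siRNA libraries. All 3 FOXA1 siRNA values of DNMT3B were above the controls, but the difference did not pass (log2 fold change 0.19, 95% interval 0.020 to 0.37, limma adjusted p = 0.0571). DNMT3B passed as higher with quantile normalization (adjusted p = 0.0428) and without FOXA1 siRNA replicate 3 (adjusted p = 0.0285), within 0.0285 to 0.360 over its alternatives. Within each library the ratio of DNMT3B to DNMT3A was 1.29, 1.47 and 1.45 in the FOXA1 siRNA libraries and 0.767, 0.822 and 0.862 in the control siRNA libraries. The summed level of the 3 DNMT genes per kilobase was therefore made up differently: DNMT1 held 84.7% ± 0.937 with FOXA1 siRNA and 78.4% ± 0.978 with control siRNA, while DNMT3A held 3.32% ± 0.378 with FOXA1 siRNA and 6.92% ± 0.504 with control siRNA (SD, n = 3 each).

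Of the TET dioxygenases, TET2 fell and the other two did not pass. TET2 had 941, 842 and 903 normalized counts in the FOXA1 siRNA libraries, against 1089, 1105 and 1128 in the control siRNA libraries (-0.31 ± 0.063, SE, limma adjusted p = 1.54e-04). TET3, the most abundant of the family per kilobase, averaged 1641 ± 47.4 with FOXA1 siRNA and 1716 ± 78.4 with control siRNA (SD, n = 3 each; log2 fold change -0.064, 95% interval -0.18 to 0.049). TET3 passed as lower with equal library totals (adjusted p = 0.0161) and with quantile normalization (adjusted p = 0.0389), within 0.0161 to 0.642 over its alternatives. TET1 was barely expressed, with normalized counts of 12.9, 12.9 and 10.7 with FOXA1 siRNA and 12.4, 12.1 and 11.5 with control siRNA, and at 9 to 17 reads per library its 95% interval on the log2 scale was -0.77 to 0.80, so a change of 1.5-fold in either direction was not detectable at this depth.

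**Figure D2:**
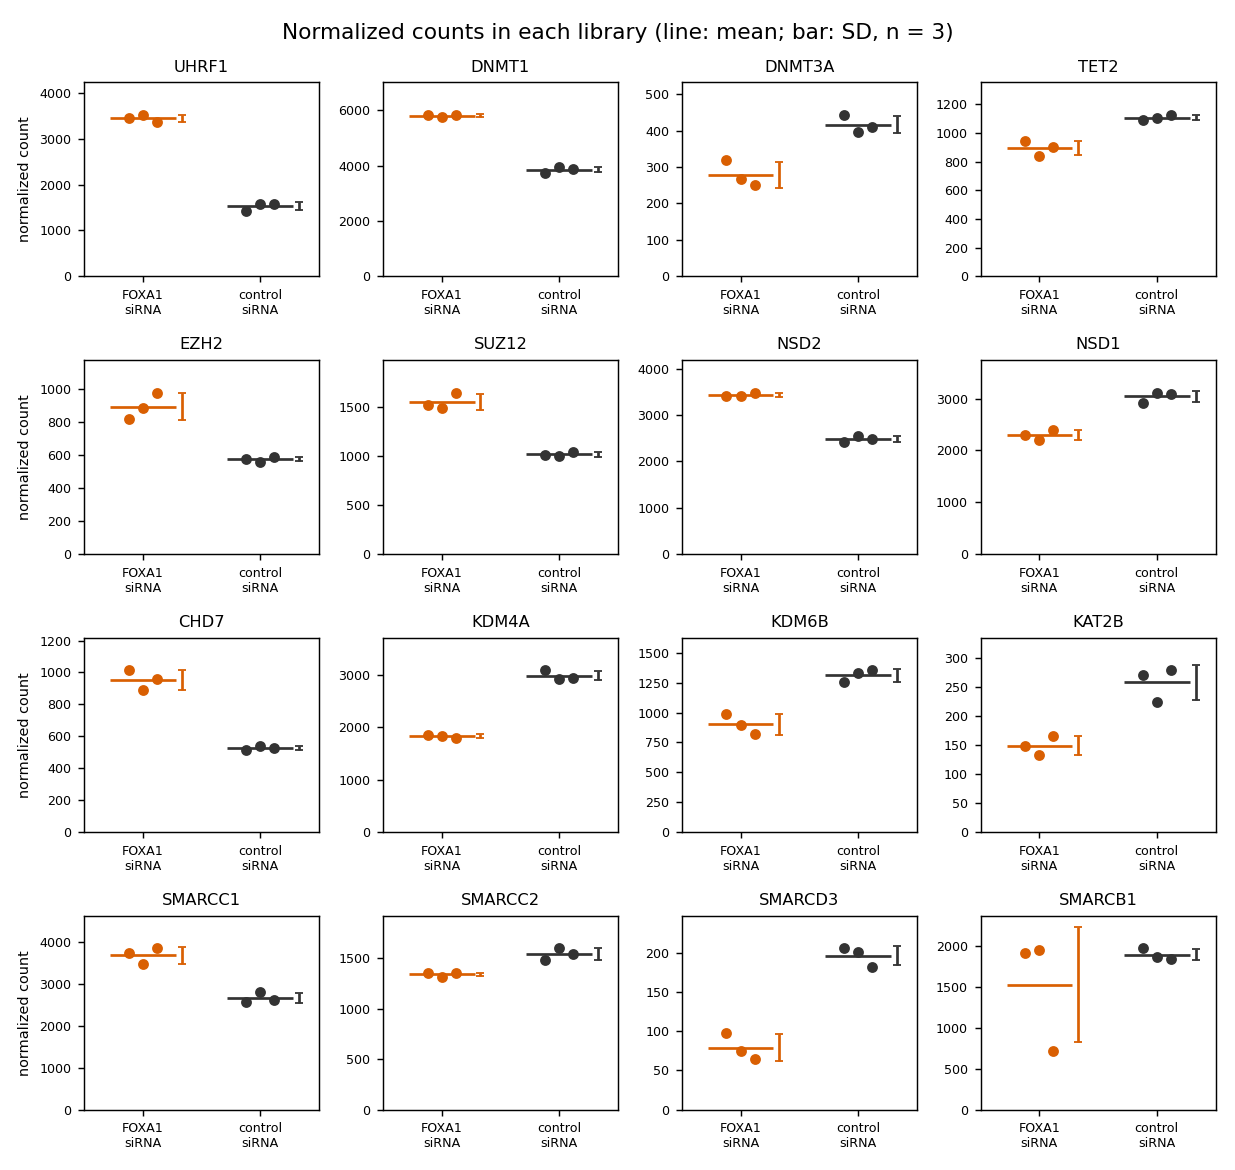
Normalized counts of 16 chromatin genes in each library, with points for the 3 libraries of a group, a line at the mean and a bar for the SD (n = 3). UHRF1, DNMT1, EZH2, SUZ12, NSD2, CHD7 and SMARCC1 lie higher with FOXA1 siRNA, the other genes except SMARCB1 lie lower, and 1 of the 3 FOXA1 siRNA libraries is far below the others for SMARCB1.

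Of 6 Polycomb genes, 4 rose and 0 fell, with a median log2 fold change of 0.35. The 4 that rose were EZH2, SUZ12, EED and EZH1 of PRC2. EZH2 (chromosome 7, 148807383 to 148884321, minus strand), the main methyltransferase of the complex, had 817, 883 and 977 normalized counts in the FOXA1 siRNA libraries, against 577, 559.9 and 589 in the control siRNA libraries. It rose 1.55-fold (0.63 ± 0.072, SE, limma adjusted p = 2.88e-08). SUZ12, a scaffold subunit without which EZH2 is inactive, had 1516, 1486 and 1646 normalized counts in the FOXA1 siRNA libraries, against 1006, 995 and 1045 in the control siRNA libraries (0.61 ± 0.059, SE, limma adjusted p = 1.49e-09). The near-identical pseudogene SUZ12P1, with which counting could share reads, had 141, 173 and 142 normalized counts with FOXA1 siRNA and 124, 126 and 137 with control siRNA, far below SUZ12 itself. EED, the subunit that reads the repressive mark, averaged 504 ± 12.7 with FOXA1 siRNA and 396 ± 22.8 with control siRNA (SD, n = 3 each; 0.35 ± 0.078, SE, limma adjusted p = 5.08e-04).

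Other PRC2 genes, outside the 53 and picked after their values were seen, went in several directions. The histone-binding subunit RBBP7 rose (0.33 ± 0.052, SE, limma adjusted p = 5.00e-06), and its paralog RBBP4 did not pass (-0.0061 ± 0.053, SE, limma adjusted p = 0.935). The accessory subunits PHF1 (-0.54 ± 0.10, SE, limma adjusted p = 9.35e-05) and MTF2 (-0.41 ± 0.087, SE, limma adjusted p = 2.33e-04) fell, and PHF19 rose (0.21 ± 0.062, SE, limma adjusted p = 0.00575).

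The second methyltransferase, EZH1, which is known for its role in non-dividing cells, also rose. EZH1 had 431, 473 and 388 normalized counts in the FOXA1 siRNA libraries, against 334, 349 and 325 in the control siRNA libraries (0.35 ± 0.087, SE, limma adjusted p = 0.00126). The ratio of EZH2 to EZH1 within a library was 1.90, 1.87 and 2.52 in the FOXA1 siRNA libraries and 1.73, 1.60 and 1.81 in the control siRNA libraries, so the groups did not overlap, and the lowest FOXA1 siRNA library lay close to the highest control siRNA library. JARID2, which helps PRC2 find its sites, averaged 485 ± 26.1 with FOXA1 siRNA and 471 ± 25.6 with control siRNA (0.041, 95% interval -0.12 to 0.20). ASXL1, a partner of the deubiquitinase BAP1, averaged 1370.3 ± 63.5 with FOXA1 siRNA and 1286 ± 79.1 with control siRNA (0.093, 95% interval -0.031 to 0.22), and neither passed.

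Genes that copy DNA moved with UHRF1, DNMT1 and EZH2. All 20 of a list of 20 replication genes rose, with a median log2 fold change of 0.80, and their summed level was 64588 to 66586 normalized counts with FOXA1 siRNA and 35903 to 38852 with control siRNA. The part of this in the rises of UHRF1, DNMT1, EZH2 and SUZ12 was not tested. Because genes that rise in S phase commonly carry E2F sites near their start, the RefSeq promoters (GRCh38.p14, 250 bases before to 50 after the start) of 47 of the 53 genes were read for the words TTTCCCGC, TTTCGCGC, TTTGCCGC and TTTGGCGC on both strands. The words and the promoters shown were picked after the fold changes were known, so the matches are a description.

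A match stood in 6 of 15 promoters of genes that rose, in 0 of 10 of genes that fell and in 1 of 22 of genes not called, BRD7. A match stood in 14.9% of all 47 promoters read and in 3.33% of 27305 promoters of the same length. No share was taken over all genes that rose, and the part of these E2F words in the rises was not tested. The forkhead words TGTTTAC and TGTTTGC stood in 1 of the 15 promoters of genes that rose, EZH1, in 2 of the 10 of genes that fell, NSD1 and TET2, and in 2 of the 22 others, ARID1B and DNMT3B, against 7.15% of all promoters. The 6 promoters of genes that rose are given from 200 bases before to 30 bases after the start, 5′ to 3′ on the gene's strand, with the E2F word in capitals, because they show where the word lies relative to the start.
UHRF1, chr19:4909301-4909530, plus strand: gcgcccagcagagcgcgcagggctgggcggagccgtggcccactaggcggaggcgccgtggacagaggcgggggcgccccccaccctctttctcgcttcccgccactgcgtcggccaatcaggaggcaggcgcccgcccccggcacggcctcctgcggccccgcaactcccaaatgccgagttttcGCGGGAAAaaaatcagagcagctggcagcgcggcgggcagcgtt
DNMT1, chr19:10194924-10195153, minus strand: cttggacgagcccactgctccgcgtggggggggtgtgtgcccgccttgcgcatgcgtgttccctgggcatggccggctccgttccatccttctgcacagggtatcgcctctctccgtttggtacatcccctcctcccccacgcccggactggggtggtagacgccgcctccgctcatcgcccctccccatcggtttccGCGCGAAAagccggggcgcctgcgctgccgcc
EZH2, chr7:148884262-148884491, minus strand: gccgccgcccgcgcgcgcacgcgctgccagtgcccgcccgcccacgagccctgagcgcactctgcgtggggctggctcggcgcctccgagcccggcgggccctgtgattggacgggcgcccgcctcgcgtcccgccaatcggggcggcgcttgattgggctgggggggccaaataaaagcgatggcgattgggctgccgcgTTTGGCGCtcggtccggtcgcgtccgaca
SUZ12, chr17:31936807-31937036, plus strand: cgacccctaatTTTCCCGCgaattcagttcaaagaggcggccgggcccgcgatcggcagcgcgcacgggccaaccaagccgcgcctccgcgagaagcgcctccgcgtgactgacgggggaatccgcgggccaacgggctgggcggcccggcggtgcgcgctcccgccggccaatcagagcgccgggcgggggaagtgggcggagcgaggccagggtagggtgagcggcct
EZH1, chr17:42745011-42745240, minus strand: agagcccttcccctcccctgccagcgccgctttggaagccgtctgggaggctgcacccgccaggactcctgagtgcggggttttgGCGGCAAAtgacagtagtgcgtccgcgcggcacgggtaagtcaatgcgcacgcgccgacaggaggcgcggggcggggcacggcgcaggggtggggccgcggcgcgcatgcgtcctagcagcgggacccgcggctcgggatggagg
NSD2, chr4:1871193-1871422, plus strand: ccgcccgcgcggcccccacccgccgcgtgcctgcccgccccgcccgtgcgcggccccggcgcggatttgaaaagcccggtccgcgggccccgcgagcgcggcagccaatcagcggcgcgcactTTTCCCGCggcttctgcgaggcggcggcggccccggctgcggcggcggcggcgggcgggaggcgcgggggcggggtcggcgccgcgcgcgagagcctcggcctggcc

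In UHRF1 the word begins 14 bases before the start, in DNMT1 2 bases before it and in EZH2 1 base after it. In NSD2 it begins 77 bases, in EZH1 115 bases and in SUZ12 189 bases before the start. These starts are the RefSeq ones. For UHRF1 and DNMT1 they lie inside the annotated gene spans given above and not at the edges of those spans. Which starts these cells use was not tested. The promoters of ARID2, SMARCC1, SMARCC2, CHD7, DOT1L and KAT6A were not used here.

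Among methyltransferases that act on other positions of the histones, NSD2 and NSD1 moved apart. NSD2, which methylates histone H3 over gene bodies and between genes, had 3411, 3405 and 3482 normalized counts in the FOXA1 siRNA libraries, against 2417, 2537 and 2485 in the control siRNA libraries (0.47 ± 0.048, SE, limma adjusted p = 3.78e-09). NSD1, its close relative with the same kind of activity, had 2308, 2208 and 2389.9 normalized counts in the FOXA1 siRNA libraries, against 2921, 3119 and 3091 in the control siRNA libraries (-0.40 ± 0.051, SE, limma adjusted p = 1.55e-07). Within a library the ratio of NSD2 to NSD1 was 1.48, 1.54 and 1.46 in the FOXA1 siRNA libraries and 0.827, 0.813 and 0.804 in the control siRNA libraries, so NSD1 had the larger count in every control library and NSD2 in every FOXA1 siRNA library. DOT1L, which methylates the core of the nucleosome at transcribed genes, had 1646, 1634 and 1409 normalized counts in the FOXA1 siRNA libraries, against 1169, 1347 and 1314 in the control siRNA libraries (0.29 ± 0.067, SE, limma adjusted p = 6.90e-04). SETD2, which marks elongating genes, averaged 1241 ± 14.9 with FOXA1 siRNA and 1132 ± 47.2 with control siRNA (SD, n = 3 each). Its groups did not overlap, yet the difference did not pass (0.13, 95% interval 0.013 to 0.25, limma adjusted p = 0.0579).

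Of 4 KMT2 genes 3 rose, each by less than 1.25-fold, and KMT2D did not pass. KMT2A, the MLL protein of leukaemia translocations, had 2309, 2159.7 and 2421 normalized counts in the FOXA1 siRNA libraries, against 1658, 1965 and 1901 in the control siRNA libraries (0.32 ± 0.061, SE, limma adjusted p = 9.65e-05). Another annotated gene on the same strand covers 17.9% of its exonic bases. KMT2B had 1092, 1090.5 and 1088 normalized counts in the FOXA1 siRNA libraries, against 784, 920.0 and 982 in the control siRNA libraries (0.29 ± 0.071, SE, limma adjusted p = 0.00113), and its FOXA1 siRNA values lay close together. KMT2C, an enhancer methyltransferase, had 1469, 1329 and 1538 normalized counts in the FOXA1 siRNA libraries, against 1165, 1272 and 1241 in the control siRNA libraries (0.24 ± 0.062, SE, limma adjusted p = 0.00221). Its call was lost with equal library totals (adjusted p = 0.0691) and when limma ran without trend and robust estimation (adjusted p = 0.0518). Over all alternatives its adjusted p was 4.42e-04 to 0.0691.

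KMT2D, the paralog that shares the enhancer role of KMT2C, had 1262, 1139 and 1108 normalized counts in the FOXA1 siRNA libraries, against 1103, 1246 and 1359 in the control siRNA libraries, and the groups overlapped (-0.077, 95% interval -0.22 to 0.069). The ratio of KMT2C to KMT2D was 1.16, 1.17 and 1.39 in the FOXA1 siRNA libraries and 1.06, 1.02 and 0.913 in the control siRNA libraries. KMT2D held 18.5% ± 1.18 with FOXA1 siRNA and 22.6% ± 0.688 with control siRNA of the summed level per kilobase of the 4 genes.

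Histone demethylases were the list with the most falls in proportion, with 3 of 5 lower and 1 higher and a median log2 fold change of -0.20. Of all tested genes 25.0% were lower and 26.8% higher, and a list of 5 genes gives only a coarse share. KDM4A (chromosome 1, 43650158 to 43705515, plus strand), which removes methyl groups from heterochromatin and gene bodies, had 1861, 1839 and 1791 normalized counts in the FOXA1 siRNA libraries, against 3087, 2922 and 2944 in the control siRNA libraries. It fell to 61.3% of the control level (-0.70 ± 0.050, SE, limma adjusted p = 2.90e-12). Another annotated gene on the same strand covers 40.2% of its exonic bases, so reads there could have been counted for either. KDM6B, which removes the mark that PRC2 places, had 993, 894 and 817 normalized counts in the FOXA1 siRNA libraries, against 1253, 1334 and 1355 in the control siRNA libraries (-0.55 ± 0.067, SE, limma adjusted p = 1.05e-07). EZH2 and KDM6B, the writer and an eraser of the same mark, thus changed in opposite directions.

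KDM5A, which erases the methyl mark of active promoters, had 1001, 991 and 1021 normalized counts in the FOXA1 siRNA libraries, against 1132, 1221 and 1109.9 in the control siRNA libraries (-0.20 ± 0.061, SE, limma adjusted p = 0.00737). Its call was lost without control siRNA replicate 2 (adjusted p = 0.0674; 2.05e-04 to 0.0674 over its alternatives). KDM5B, its paralog, averaged 2865 ± 164 with FOXA1 siRNA and 3061 ± 79.9 with control siRNA and did not pass (-0.097, 95% interval -0.20 to 0.0086). KDM5B passed as lower with equal library totals (adjusted p = 0.00217), with quantile normalization (0.00114) and without FOXA1 siRNA replicate 3 (0.0156), within 0.00114 to 0.434 over its alternatives. KDM1A, also called LSD1, which demethylates histone H3 and is known to act on FOXA1 protein in prostate cancer cells, was the single one that rose. KDM1A had 1623, 1618 and 1690.2 normalized counts in the FOXA1 siRNA libraries, against 1519, 1372 and 1405 in the control siRNA libraries (0.20 ± 0.057, SE, limma adjusted p = 0.00411). That rise did not pass with equal library totals (log2 fold change 0.10, adjusted p = 0.127) or with quantile normalization (0.13, adjusted p = 0.0580). Over all alternatives its adjusted p was 0.00226 to 0.127.

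Of 15 SWI/SNF genes, 2 rose, 4 fell and 9 did not pass, a called share of 40.0%, against 51.8% of all tested genes. The main ATPase and the ARID subunits were among those that did not pass. SMARCA4, the BRG1 ATPase, had 5169.9, 5009 and 4829.7 normalized counts in the FOXA1 siRNA libraries, against 4576, 4738 and 4875 in the control siRNA libraries (0.081, 95% interval -0.016 to 0.18, limma adjusted p = 0.155). ARID1A, the largest subunit of the BAF form and a tumour suppressor, had 1858, 1675 and 1621 normalized counts in the FOXA1 siRNA libraries, against 1467, 1647 and 1689 in the control siRNA libraries (0.10, 95% interval -0.026 to 0.23, limma adjusted p = 0.178). The intervals of both stay below a 1.25-fold change. SMARCA4 passed as higher without FOXA1 siRNA replicate 3 (adjusted p = 0.0463; 0.0463 to 0.787 over its alternatives). ARID1B (-0.0088), ARID2 (0.17), PBRM1 (0.12), BRD7 (0.085), BRD9 (-0.064) and SMARCE1 (0.076) did not pass either, and of these the libraries of ARID2 and PBRM1 did not overlap between the groups. ARID2 passed as higher without FOXA1 siRNA replicate 2 (adjusted p = 0.0317) and without FOXA1 siRNA replicate 3 (0.0461), within 0.0317 to 0.429 over its alternatives. Exons of ADCY7 on the opposite strand cover 42.3% of the exonic bases of BRD7. For SMARCE1, another annotated gene on the same strand covers 19.8% of the exonic bases.

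The SWI/SNF genes that passed were SMARCC1, SMARCC2, SMARCD1, SMARCD2, SMARCD3 and SMARCA2, subunits for which a paralog can take the place of another. That trait is not particular to them, since ARID1A and ARID1B are such alternatives too and did not pass. SMARCC1 (BAF155), a scaffold, had 3732, 3468 and 3851 normalized counts in the FOXA1 siRNA libraries, against 2560.2, 2803 and 2627 in the control siRNA libraries (0.47 ± 0.052, SE, limma adjusted p = 1.74e-08). SMARCC2 (BAF170), its alternative, had 1351, 1317 and 1351 normalized counts in the FOXA1 siRNA libraries, against 1486, 1599 and 1545 in the control siRNA libraries (-0.20 ± 0.056, SE, limma adjusted p = 0.00313). The ratio of SMARCC1 to SMARCC2 was 2.76, 2.63 and 2.85 in the FOXA1 siRNA libraries and 1.72, 1.75 and 1.70 in the control siRNA libraries. SMARCC1 made up 75.5% ± 0.745 with FOXA1 siRNA and 65.9% ± 0.347 with control siRNA of the summed level of the pair per kilobase (SD, n = 3 each), and the ranges of the groups lay far apart.

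The SMARCD genes, which encode the BAF60 subunits, showed the same kind of difference. SMARCD3 (BAF60C, chromosome 7, 151238764 to 151277896, minus strand), known from heart and muscle development, had 97.5, 75.1 and 64.0 normalized counts in the FOXA1 siRNA libraries, against 205, 201 and 182 in the control siRNA libraries. It fell to 40.2% of the control level, the largest change among the 53 genes (-1.32 ± 0.15, SE, limma adjusted p = 1.80e-08). Exons of an opposite-strand gene cover 11.0% of its exonic bases. SMARCD1 (BAF60A) had 1390.3, 1326 and 1299.9 normalized counts in the FOXA1 siRNA libraries, against 1125, 1182 and 1084 in the control siRNA libraries (0.24 ± 0.059, SE, limma adjusted p = 0.00102). SMARCD2 (BAF60B) had 2797, 2811 and 2703 normalized counts in the FOXA1 siRNA libraries, against 3141, 3189 and 3030.5 in the control siRNA libraries (-0.17 ± 0.048, SE, limma adjusted p = 0.00408). SMARCD2 remained the most abundant of these genes per kilobase, and SMARCD3 held 1.49% ± 0.289 with FOXA1 siRNA and 3.45% ± 0.141 with control siRNA of their sum.

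The ATPase pair differed less. SMARCA2 (BRM), the alternative to SMARCA4, averaged 1238 ± 59.4 with FOXA1 siRNA and 1380.0 ± 56.1 with control siRNA (-0.16 ± 0.059, SE, limma adjusted p = 0.0268). Its call was lost in 7 of 18 alternatives, with adjusted p of 6.90e-04 to 0.143. Among these were the fits without control siRNA replicate 2 (adjusted p = 0.0603) and without control siRNA replicate 3 (0.143). The same held without FOXA1 siRNA replicate 1 (adjusted p = 0.101) and without FOXA1 siRNA replicate 2 (0.0799). The ratio of SMARCA2 to SMARCA4 was 0.232, 0.241 and 0.270 in the FOXA1 siRNA libraries and 0.291, 0.289 and 0.295 in the control siRNA libraries.

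SMARCB1 (GRCh38 chromosome 22, 23786931 to 23838008, plus strand), the core subunit lost in rhabdoid tumours, stood out for 1 library. It had 1916, 1953 and 714 normalized counts in the FOXA1 siRNA libraries, against 1974, 1870.3 and 1847 in the control siRNA libraries. The first and the second FOXA1 siRNA library lay among the controls and the third far below them, and this case was chosen after its values were seen. The log2 fold change was -0.45 with a 95% interval of -1.73 to 0.83 (limma adjusted p = 0.487), and 0.028 without FOXA1 siRNA replicate 3 (adjusted p = 0.669). In that library, of 7120 genes with a mean of at least 500 normalized counts whose other 2 libraries differed by less than 0.3 on the log2 scale, 3 differed from these by more than 2-fold, namely EEF1A1-AS1, SMARCB1 and PFDN6. In the other 5 libraries there were 0 or 1 such genes. CHCHD10, a neighbouring gene, had 2086, 2207 and 1209 normalized counts with FOXA1 siRNA and 1275, 1302 and 735 with control siRNA, low in the third library of both groups. MMP11, another neighbour, had 26.8, 31.1 and 41.5 with FOXA1 siRNA and 63.7, 84.7 and 92.1 with control siRNA. MIF had 9593, 10389 and 8738 with FOXA1 siRNA and 8076, 7605 and 7724 with control siRNA. DERL3 had 11.8, 15.2 and 7.12 with FOXA1 siRNA and 24.7, 18.2 and 38.7 with control siRNA. Exons of DERL3 on the opposite strand cover 17.7% of the exonic bases of SMARCB1. The cause of the low value was not tested.

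**Figure D3:**
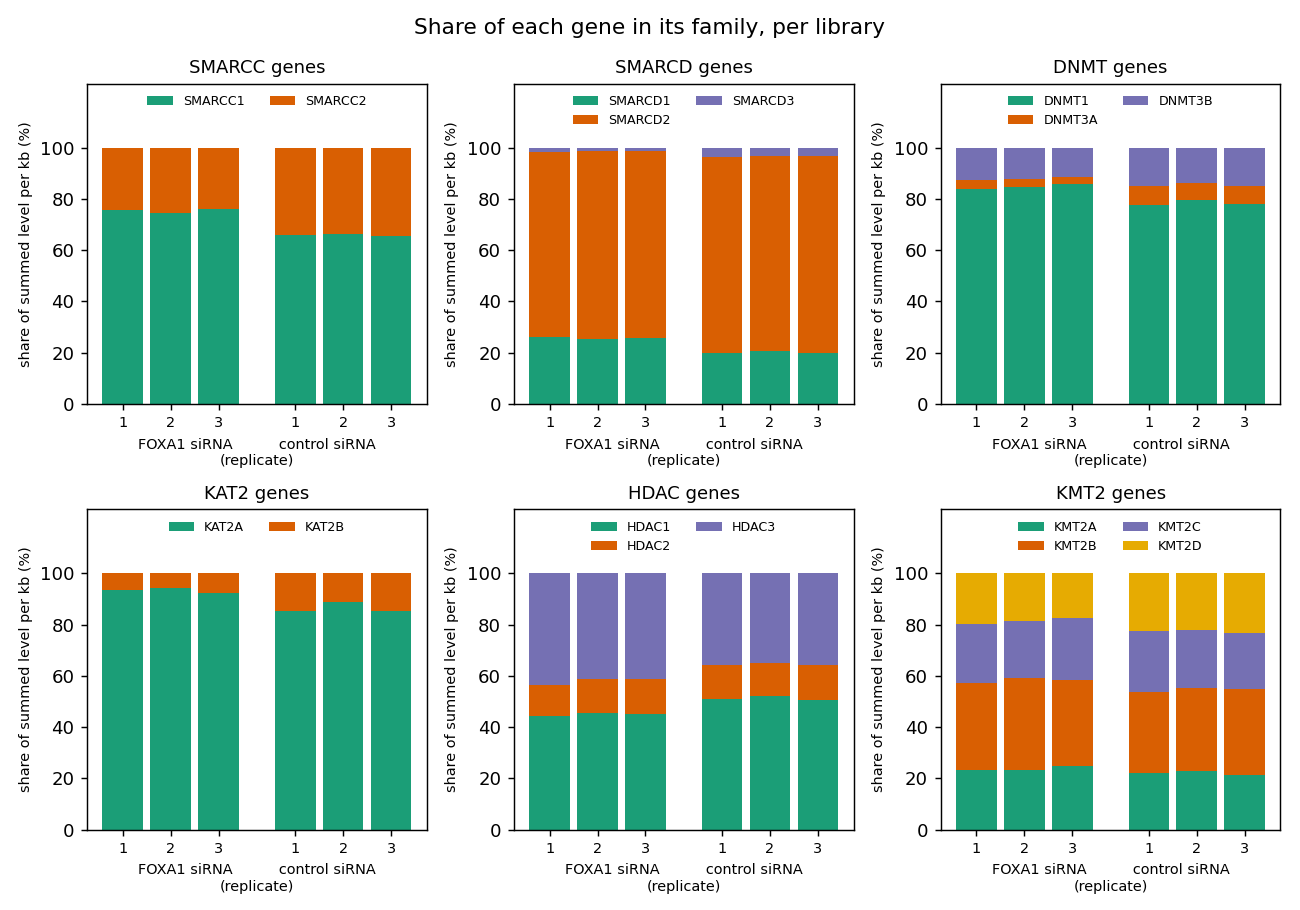
Stacked bars of the share (%) that each gene holds of its family's summed normalized count per kilobase of exon, in each library of the FOXA1 siRNA and control siRNA groups. SMARCC1, SMARCD1, DNMT1, KAT2A, HDAC3, KMT2A and KMT2B take larger shares in every FOXA1 siRNA library than in any control siRNA library.

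CHD remodelers use the same kind of motor as SWI/SNF. CHD7 (chromosome 8, 60678778 to 60868028, plus strand), which binds enhancers and is mutated in CHARGE syndrome, had 1013, 890.2 and 956 normalized counts in the FOXA1 siRNA libraries, against 514, 541 and 528 in the control siRNA libraries. It rose 1.80-fold (0.85 ± 0.069, SE, limma adjusted p = 4.68e-11), the second largest rise of the 53. CHD4, the motor of the NuRD corepressor complex and by count the most abundant of the 53, had 11768, 11404 and 11948 normalized counts in the FOXA1 siRNA libraries, against 10171, 10298 and 10410.5 in the control siRNA libraries (0.19 ± 0.042, SE, limma adjusted p = 5.87e-04). Its rise ended with equal library totals (log2 fold change 0.087, adjusted p = 0.0766) and its sign turned with quantile normalization (-0.0086, adjusted p = 0.879). Over all alternatives its adjusted p was 1.63e-05 to 0.879. Another annotated gene on the same strand covers 46.9% of its exonic bases. CHD8, which binds beta-catenin and is linked to autism, averaged 2507 ± 94.0 with FOXA1 siRNA and 2354 ± 52.0 with control siRNA (SD, n = 3 each; 0.090, 95% interval -0.013 to 0.19).

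Of 5 histone acetyltransferases, 2 rose and 1 fell. The paralogs EP300 and CREBBP, coactivators at enhancers, did not pass, although EP300 passed as higher without FOXA1 siRNA replicate 2 (adjusted p = 0.0365; 0.0365 to 0.891 over its alternatives). EP300 had 2201, 1865 and 2122 normalized counts in the FOXA1 siRNA libraries, against 1811, 1997 and 2016 in the control siRNA libraries (0.085, 95% interval -0.040 to 0.21), and CREBBP averaged 1832 ± 118 with FOXA1 siRNA and 1855 ± 109 with control siRNA (-0.019, 95% interval -0.14 to 0.10). KAT2A (GCN5), the acetyltransferase of the SAGA complex, had 1388, 1464 and 1354 normalized counts in the FOXA1 siRNA libraries, against 1044, 1165 and 1087 in the control siRNA libraries (0.35 ± 0.060, SE, limma adjusted p = 1.67e-05). KAT2B (PCAF), its alternative in the same complex, had 148, 132 and 166 normalized counts in the FOXA1 siRNA libraries, against 271, 223 and 278 in the control siRNA libraries (-0.79 ± 0.12, SE, limma adjusted p = 2.53e-06). Another annotated gene on the same strand covers 10.7% of the exonic bases of KAT2A.

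The 2 KAT2 genes thus moved apart more than any other pair examined, with a ratio of KAT2A to KAT2B of 9.38, 11.1 and 8.16 in the FOXA1 siRNA libraries and 3.85, 5.23 and 3.91 in the control siRNA libraries. Per kilobase KAT2B held 6.64% ± 0.944 with FOXA1 siRNA and 13.6% ± 1.94 with control siRNA of their sum. KAT6A (MOZ) had 846, 875 and 925 normalized counts in the FOXA1 siRNA libraries, against 748, 813 and 751 in the control siRNA libraries (0.19 ± 0.066, SE, limma adjusted p = 0.0154), and its call was lost in 7 of 18 alternatives, with adjusted p of 0.0131 to 0.225. Leaving out control siRNA replicate 1 gave an adjusted p of 0.0604, control siRNA replicate 3 gave 0.0641 and FOXA1 siRNA replicate 3 gave 0.0521.

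Of HDAC1, HDAC2, HDAC3 and the corepressor NCOR1, 1 of 4 rose, HDAC3, and the other 3 did not pass. HDAC8, a further class I deacetylase gene outside the 53, rose as well (0.21 ± 0.070, SE, limma adjusted p = 0.0123). HDAC3, the enzyme of the NCOR corepressor complex, had 2244, 2178 and 2169 normalized counts in the FOXA1 siRNA libraries, against 1714, 1677 and 1686 in the control siRNA libraries (0.38 ± 0.051, SE, limma adjusted p = 5.40e-07). HDAC1 had 1958, 2063 and 2038 normalized counts in the FOXA1 siRNA libraries, against 2085, 2127 and 2039.8 in the control siRNA libraries (-0.045, 95% interval -0.15 to 0.060), HDAC2 averaged 2289.7 ± 162 with FOXA1 siRNA and 2099 ± 61.8 with control siRNA (0.12, 95% interval 0.0097 to 0.24), and NCOR1 averaged 3407 ± 158 with FOXA1 siRNA and 3429.9 ± 181 with control siRNA (-0.0095, 95% interval -0.12 to 0.096). HDAC3 held 41.9% ± 1.34 with FOXA1 siRNA and 35.6% ± 0.369 with control siRNA of the summed level of HDAC1, HDAC2 and HDAC3 per kilobase. HDAC2 passed as higher without FOXA1 siRNA replicate 1 (adjusted p = 0.0101; 0.0101 to 0.717 over its alternatives) and HDAC1 as lower with equal totals (adjusted p = 0.0191; 0.0191 to 0.775 over its alternatives).

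Ratios of paralogs within a library do not depend on how libraries are scaled. Of 15 pairs examined, 11 had ratios that did not overlap between the groups, 8 higher and 3 lower with FOXA1 siRNA. For comparison, 57.6% of all single genes tested did not overlap. Ratios of other gene pairs were not computed, so whether separation is particular to these pairs cannot be told. The differences of the mean log2 ratio were 1.14 for KAT2A over KAT2B, 0.87 for NSD2 over NSD1, 0.78 for DNMT3B over DNMT3A and 0.67 for SMARCC1 over SMARCC2. Smaller ones were 0.42 for SMARCD1 over SMARCD2, 0.31 for KMT2C over KMT2D, 0.10 for EP300 over CREBBP and -0.24 for TET2 over TET3. The ratios of ARID1A to ARID1B, BRD9 to BRD7, KMT2B to KMT2A and KDM5A to KDM5B overlapped. Each exact two-sided permutation test of 3 against 3 libraries gives at least p = 0.1, and the lowest p adjusted over the 15 pairs was 0.136, so no pair could pass.

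**Figure D4:**
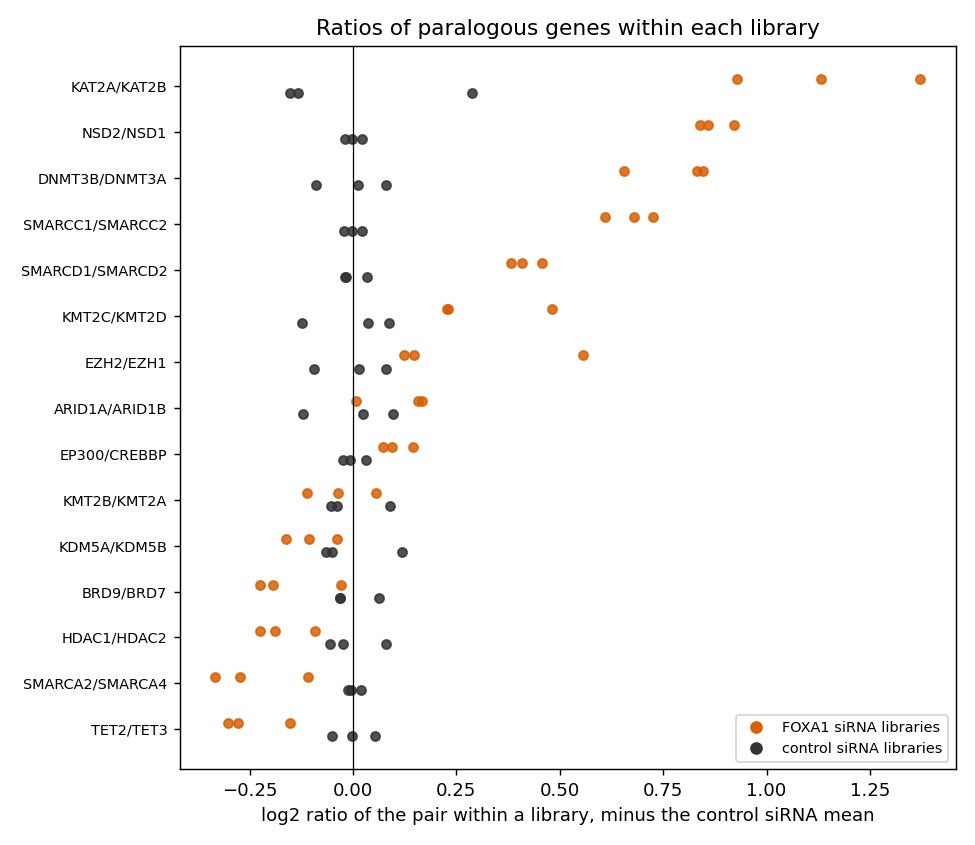
Log2 ratio of 15 pairs of paralogous genes in each library, relative to the mean of the control siRNA libraries, with orange points for FOXA1 siRNA and dark points for control siRNA libraries. The KAT2A to KAT2B ratio lies 1.14 higher on average with FOXA1 siRNA, and the TET2 to TET3 ratio 0.24 lower.

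The remaining chromatin genes, taken from lists by name, changed in both directions. Of 139 such genes 135 were tested, of which 44 rose and 35 fell (58.5%), with a median log2 fold change of 0.038. Among 26 further methyltransferase genes, their partners included, 14 rose and 2 fell. SETD7 (0.80 ± 0.074), a histone and protein methyltransferase, and SUV39H1 (0.54 ± 0.089), which builds heterochromatin, rose most, while ASH2L (-0.27 ± 0.084), a cofactor of the KMT2 enzymes, and NSD3 (-0.19 ± 0.058) fell. Of 14 further demethylase genes tested, 7 fell and 2 rose. KDM5C (-0.59 ± 0.055) and KDM3B (-0.41 ± 0.051) fell most, and JMJD6 (0.51 ± 0.085) and KDM2B (0.25 ± 0.080) rose.

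Of 21 further Polycomb genes tested, 9 rose and 6 fell. PCGF5 (0.88 ± 0.12), a subunit of a variant PRC1, and AEBP2 (0.36 ± 0.060), a cofactor of PRC2, rose most. CBX7 (-0.86 ± 0.12) and CBX8 (-0.67 ± 0.091), the readers of the PRC2 mark in canonical PRC1, fell most. Of 25 other remodeler genes tested 10 rose and 5 fell, among them CHD1 (0.60 ± 0.065) and HELLS (0.54 ± 0.060), a helicase needed for DNA methylation, which rose, and SMARCA1 (-1.02 ± 0.13) and CHD9 (-0.52 ± 0.086), which fell.

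Other SWI/SNF subunits split evenly, with 3 of 14 higher and 3 lower. SS18 (0.35 ± 0.080) and ACTL6A (0.18 ± 0.055) rose, and BCL11A (-0.65 ± 0.097) fell. Other acetylation enzymes and readers were higher in 6 of 27 cases and lower in 8, with HAT1 (0.28 ± 0.057) and KAT8 (0.28 ± 0.067) among the rises and the class II deacetylase genes HDAC5 (-0.58 ± 0.094) and HDAC10 (-0.57 ± 0.079) among the falls. Exons of MAPK12 on the same strand cover 55.8% of the exonic bases of HDAC10, so reads there could have been counted for either. Of 8 further DNA methylation genes, 4 fell and 0 rose. TDG (-1.46 ± 0.088, SE, limma adjusted p = 8.32e-14), the glycosylase that excises the bases TET enzymes make, had 200.4, 184 and 191 normalized counts in the FOXA1 siRNA libraries, against 529, 545 and 513 in the control siRNA libraries.

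**Figure D5:**
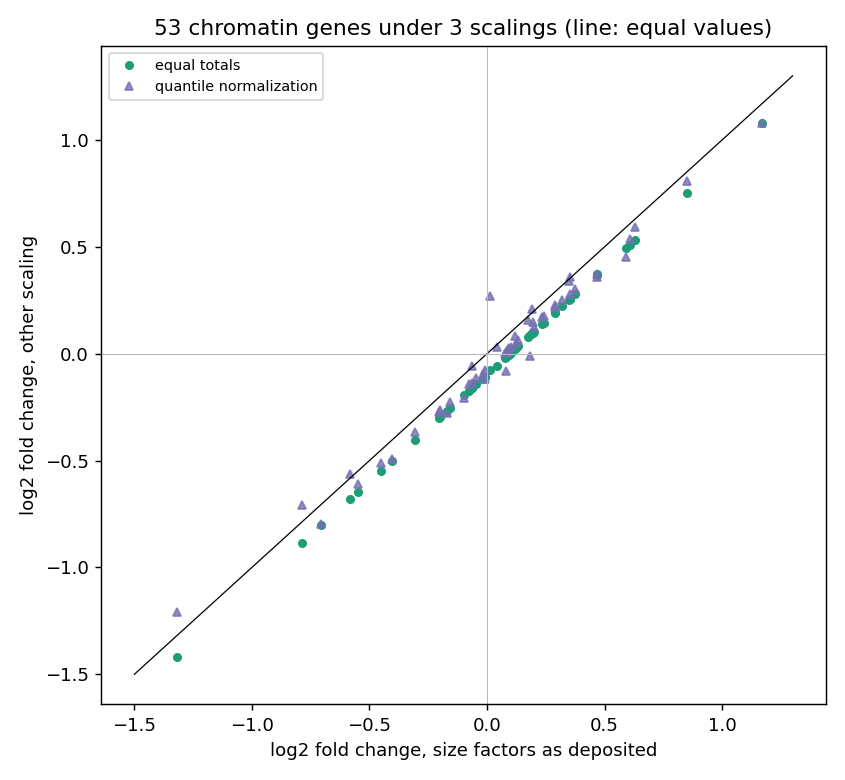
Log2 fold change of the 53 genes with size factors as deposited (x axis) against equal library totals (circles) and quantile normalization (triangles), with a line at equal values. The circles run parallel to the line and below it, and the triangles scatter around that course.

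The authors' deposited table gives its own comparison of these libraries. There, in the authors' deposited table, 19 of the 53 genes were higher and 10 lower at an adjusted p under 0.05, and these 29 were also called here, each in the same direction. The remaining gene called here was SMARCA2.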

How the data were processed

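RNA of 6 libraries, 3 per group, was sequenced after siRNA transfection. The authors deposited normalized counts, a signal made of gene counts divided by 1 size factor per library, with their own log2 fold change, its standard error and test statistic as scores, and p-values, per the file headers. HISAT2, DESeq2, GRCh38 and GRCm38 are named without versions in the submitters' processing notes, and the role of the mouse build, the annotation and the strand setting are not given in the sources used here. Of 61862 lines, 3 malformed ones were left out, and 61756 of 61859 gene IDs matched a gene name. All values came out as whole reads within 0.01 of a read once divided by the step of their library, and these recovered reads gave the depths. Besides the 6 sample columns, no column had a name with the same opening (0).

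Normalized counts were tested as log2(value + 1) with limma 3.58.1 in R 4.3.3 (trend and robust options, both groups of 3 and no covariate) over 18460 genes with a mean of at least 10, with Benjamini-Hochberg adjustment over all of them and a threshold of 0.05. Fold changes on this scale understate those of genes with few reads. The scripts were tested on simulated data. The alternatives were other pseudocounts, filters, scalings, limma options and thresholds, the replicate number as a block, each library left out in turn, and the count models edgeR 4.0.16 and DESeq2 1.42.0 on the recovered reads. Positions and exon lengths are those of GENCODE 29 (GRCh38), promoter sequences those of RefSeq GRCh38.p14.

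The 53 genes and all other lists were chosen with earlier results of these data known. Values per library are given, in each list, for up to 3 genes that rose and 3 that fell with a mean of at least 50, and for SMARCA4, ARID1A, KMT2C, KMT2D, EZH2, KDM1A, KDM6B, EP300, HDAC1, DNMT1, TET2 and UHRF1. In the other chromatin lists up to 2 genes per direction are named. Some genes of the lists are not reported here by name. DNMT3B, TET1, SMARCB1 and TDG were given per library in addition, and RBBP4, RBBP7, PHF1, MTF2, PHF19 and HDAC8 named in addition, after their values were seen.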

Additional observations from a re-analysis of the deposited data

How the results depend on the processing

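Of the 30 calls, 24 held in all 18 alternatives, 15 higher and 9 lower, and the 6 lost in at least 1 were SMARCA2, CHD4, KMT2C, KDM1A, KDM5A and KAT6A. Of the 23 genes not called, 8 were called in at least 1 alternative, namely ARID2, SMARCA4, KDM5B, EP300, HDAC1, HDAC2, DNMT3B and TET3. With equal library totals the log2 fold change turned to -0.0171 for SMARCA4, -0.0221 for SMARCE1, -0.0127 for BRD7, -0.00787 for CHD8, -0.0566 for JARID2, -0.00525 for ASXL1, -0.0125 for EP300 and -0.0776 for TET1, none of them called in either fit. That scaling moves the median of all tested genes to -0.093 on the log2 scale. With quantile normalization SMARCA4 turned to -0.0788 and CHD4 to -0.00864. Leaving out each library in turn gave log2 fold changes of -0.0434 to 0.0363 for ARID1B, -0.0642 to 0.036 for CREBBP, -0.049 to 0.0298 for NCOR1, -0.0298 to 0.0961 for TET1 and -0.697 to 0.0284 for SMARCB1, and the cause was not tested. Deviations of libraries with the same replicate number from their group means correlated by -0.010, 0.011 and -0.011. Those with different numbers correlated by -0.011 to 0.021. Whether the numbers pair the samples is not given in the labels, and correlations from 3 libraries per group cannot settle it. With the replicate block 19 of the 53 genes were higher and 11 lower, and 4837 of all tested genes were higher and 4495 lower. Depth limits TET1 most.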
